A study of Mus musculus with 9 samples.

Results

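Liver messenger RNA of 10 genes that take up choline and make or remodel phosphatidylcholine was measured across 9 libraries. The genes were chosen by name from the 54532 genes of the deposited table, by their place in the pathway: the CDP-choline route (Chka, Chkb, Pcyt1a, Chpt1 and Cept1), its ethanolamine counterpart (Etnk2 and Pcyt2), the PEMT route (Pemt), remodelling (Lpcat3) and choline transport (Slc44a1). All libraries came from livers of male C57BL/6J mice of wild-type genotype, 3 per group. The mice of the first group ate CDAA-HFD, a high-fat diet deficient in choline that is defined by its L-amino acids and is used in mice to produce steatohepatitis, and received the compound 326E at 30 mg/kg for 6 weeks. The second group ate CDAA-HFD and received vehicle, and the third ate normal chow and received vehicle. They are called 326E, vehicle and chow livers here. The series title describes 326E as an analogue of an enedioic acid that acts on ATP citrate lyase and PPARα. 326E was given on CDAA-HFD only.

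Phosphatidylcholine is the main phospholipid of cell membranes, of bile and of the coat of the very-low-density lipoproteins with which the liver exports triglyceride. Most of it is made from choline, which is phosphorylated, activated with CTP and joined to diacylglycerol. The liver has a second route, in which PEMT adds methyl groups from S-adenosylmethionine to phosphatidylethanolamine, and that lipid is itself made from ethanolamine by a parallel set of enzymes. Acyltransferases such as LPCAT3 then exchange the fatty acids of the finished lipid. A diet deficient in choline limits the substrate of the first route.

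Genes took between 13275888 and 17058316 reads in a library. Values are FPKM, reads scaled to the length of the gene and the size of the library, and group values are means ± SD of 3 libraries. For the 10 genes this length is that of all annotated exons together, so an order of genes by FPKM depends on the annotation. Differences between groups are on the scale of log2(FPKM + 1), are given ± their standard error, and understate the change of low genes. Each was tested with limma across 13737 genes, and a gene was called at a Benjamini-Hochberg adjusted p under 0.05. Nothing in the labels ties each library to its own animal, so p-values measure the spread between these samples. The background was high: 11.5% of tested genes were called in 326E against vehicle livers (4.96% higher and 6.5% lower), 41.6% in vehicle against chow livers (20.8% higher and 20.8% lower) and 26.8% in 326E against chow livers. These comparisons share libraries, so none is independent of the others. Vehicle replicates 1 and 3 stood apart from vehicle replicate 2 in immediate early genes, described with Chka. With vehicle replicate 2 as the only vehicle library, 322 genes were called in 326E against vehicle livers and 3596 in vehicle against chow livers, in place of 1574 and 5721, the lone library being taken to vary like the other groups. Scaling to total assigned reads moved the median of all genes in vehicle against chow livers from -0.04 to 0.25, with 5074 genes then called higher and 961 lower in place of 2859 and 2862. In 326E against chow livers it moved the median from -0.02 to 0.24, with 3953 called higher and 594 lower in place of 1974 and 1714.

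Promoters are shown for the gene that separated all 3 groups (Lpcat3), the gene with the widest spread between libraries (Chka) and the gene with the narrowest spread relative to its level (Pcyt1a). Each is 300 bases from RefSeq on GRCm38.p6, from 250 bases before the start of the transcript to 50 after it, on the + strand. RefSeq's table matched 9 of the 10 genes, with 15 windows, and Pcyt2 was not matched. Lpcat3 is at chr6:124662854-124663153, Chka at chr19:3851523-3851822 and Pcyt1a at chr16:32430671-32430970. Capitals mark matches, on either strand, to any of 8 short motifs.
Lpcat3: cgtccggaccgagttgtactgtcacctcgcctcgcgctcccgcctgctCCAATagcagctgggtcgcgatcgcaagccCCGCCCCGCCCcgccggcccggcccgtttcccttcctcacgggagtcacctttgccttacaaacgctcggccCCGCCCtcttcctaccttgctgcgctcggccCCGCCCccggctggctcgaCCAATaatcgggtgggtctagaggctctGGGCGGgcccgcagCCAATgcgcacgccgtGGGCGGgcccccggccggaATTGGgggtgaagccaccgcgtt
Chka: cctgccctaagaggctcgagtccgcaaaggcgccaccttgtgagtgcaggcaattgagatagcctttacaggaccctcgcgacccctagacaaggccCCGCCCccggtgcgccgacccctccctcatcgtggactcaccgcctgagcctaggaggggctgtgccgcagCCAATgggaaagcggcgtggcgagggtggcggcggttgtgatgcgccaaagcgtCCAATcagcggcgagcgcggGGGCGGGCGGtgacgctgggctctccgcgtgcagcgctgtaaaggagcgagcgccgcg
Pcyt1a: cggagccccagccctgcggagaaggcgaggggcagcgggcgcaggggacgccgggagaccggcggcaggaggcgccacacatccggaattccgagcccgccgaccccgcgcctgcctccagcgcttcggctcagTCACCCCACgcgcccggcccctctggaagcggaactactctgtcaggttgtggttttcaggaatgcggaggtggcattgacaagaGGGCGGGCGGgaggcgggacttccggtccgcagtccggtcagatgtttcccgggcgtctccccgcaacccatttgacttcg
The motifs searched were AGGTCA (a nuclear receptor half-site, in 16.3% of all 32851 promoters of this length), TGANTCA (an AP-1 site, 7.81%), TGACGTCA (a cAMP response element, 1.79%), CACGTG (an E-box, 7.15%), TCACNCCAC (a sterol regulatory element, 1.24%), GGGCGG (a GC box, 35.7%), CCAAT (37.4%) and TATAAA (13.6%). Neighbouring GC boxes can overlap and then form 1 run of capitals. Every match in the Lpcat3 and Chka windows was to a GC box or a CCAAT box. The Pcyt1a window held, besides GC boxes, 1 sterol regulatory element that begins at position -116 from the start. In the other windows of the pathway genes, AGGTCA occurred only in the third Pcyt1a window, and TATAAA only in that of Chkb. A match describes the letters of a window and is not a bound site, and a window without one says nothing about a factor.

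Between 326E and vehicle livers, both on CDAA-HFD, Lpcat3 and Pcyt2 rose, and of the 9 tested genes the other 7 were not called. Lpcat3 stood 1.97-fold higher and Pcyt2 1.44-fold higher in 326E livers by group means. These 2 of 9 stand against a background of 11.5%, and a count of 2 is too small to set the group apart from it. Between vehicle and chow livers, Pcyt2, Chpt1 and Lpcat3 fell (Lpcat3 stood at 0.01 under total-read scaling, where the median of all genes was 0.25) and Chka rose, 4 of 9, which is near the background of 41.6%. Lpcat3, Pcyt2 and Chpt1 were thus each lower in vehicle than in chow livers as deposited, and their means in 326E livers lay above those of vehicle livers. These 3 genes were picked by their lower call in vehicle livers, and both comparisons use the same vehicle libraries. That choice by itself favours a higher mean in 326E livers, and the pattern was not tested. Chpt1 overlapped between 326E and vehicle livers and was not called there (adjusted p = 0.134). The median difference of the 9 genes was 0.09 in 326E against vehicle livers and -0.19 in vehicle against chow livers, beside -0.02 and -0.04 over all tested genes. Since the tissue was measured in bulk, fewer hepatocytes and less RNA per hepatocyte cannot be told apart.

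**Figure D1:**
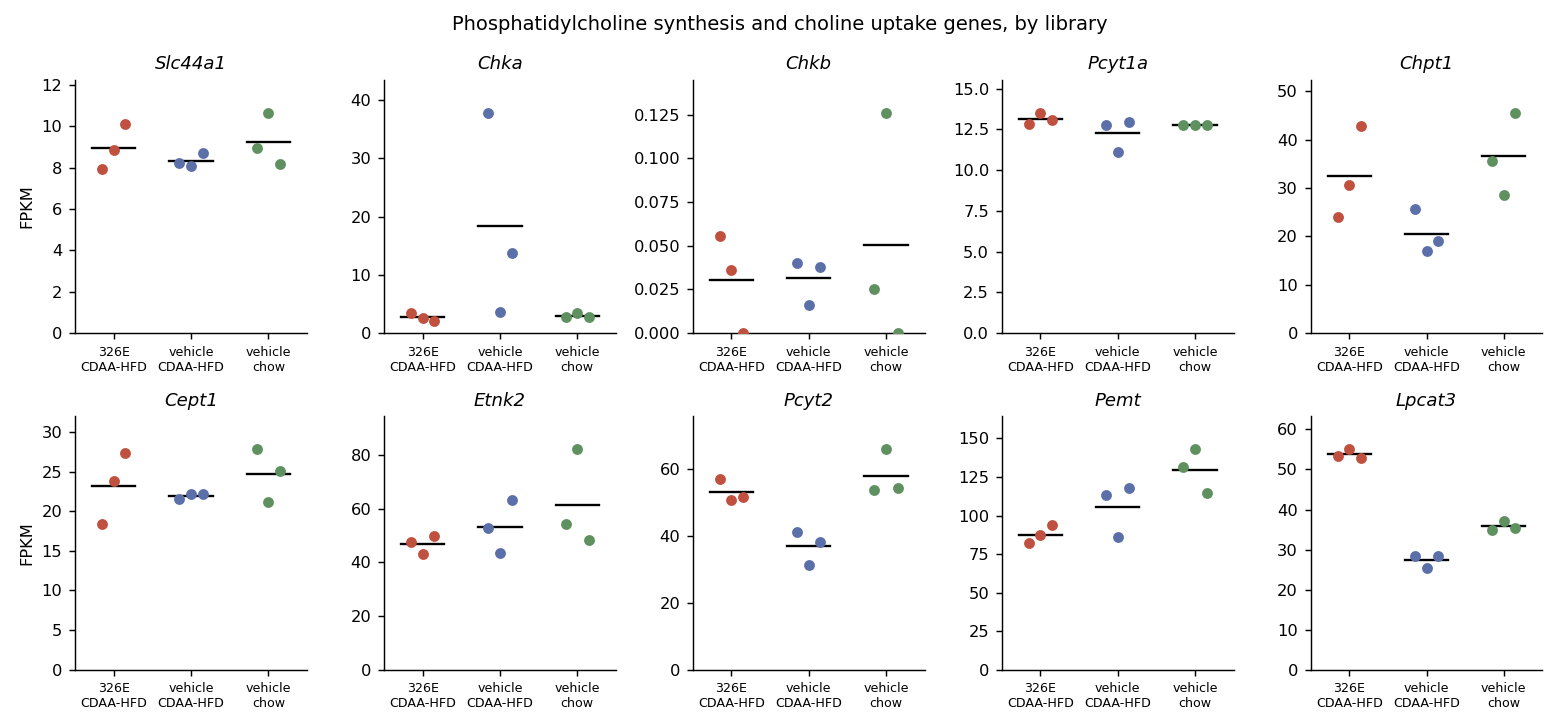
FPKM of each of the 10 genes (vertical axes from 0, different for each gene) in the 3 libraries of each group; points are libraries and bars are group means. Lpcat3 separates all groups, Chka is high in 2 of the 3 vehicle libraries, and Chkb is near 0 everywhere.

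Some markers of macrophages and of stellate cells and myofibroblasts were called in both comparisons. The summed FPKM of 7 macrophage markers ranged from 562 to 942 in 326E livers, from 1033 to 1475 in vehicle livers and from 202 to 220 in chow livers. Of these markers, 4 were lower in 326E than in vehicle livers and 6 were higher in vehicle than in chow livers. Clec4f was called in neither comparison and lay the other way (0.27 and -0.36). Lyz2 alone averaged 462, 922 and 81.8 FPKM in 326E, vehicle and chow livers. Over all tested genes, 4.96% were called higher and 6.5% lower in the first comparison, and 20.8% in each direction in the second. These shares apply to every marker list here. The sum of 7 stellate cell and myofibroblast markers ranged from 82.9 to 101 in 326E livers, from 124 to 215 in vehicle livers and from 14.0 to 30.0 in chow livers. Of these, 3 (Col1a1, Col3a1 and Lum) were lower in 326E than in vehicle livers. The other 4 were not called, and Acta2 (0.25) and Lrat (0.03) lay above 0. In vehicle against chow livers 5 were higher and 2 were not called. Of 7 hepatocyte markers, none was called between 326E and vehicle livers and 3 were lower in vehicle than in chow livers, with sums of 26300 to 37470, of 28540 to 43430 and of 42380 to 49490 FPKM in 326E, vehicle and chow livers. No marker of these lists was at 0 in every library, and the hepatocyte sums were the highest of all marker lists in every library. Alb alone averaged 20160, 26120 and 31770 FPKM in 326E, vehicle and chow livers, most of these sums, and was called in neither comparison. Of other markers, 3 of 4 tested cholangiocyte genes and 2 of 3 tested neutrophil genes were higher in vehicle than in chow livers, and none of them was called between 326E and vehicle livers. Of 5 endothelial genes, 1 was higher and 1 lower in vehicle than in chow livers, and of 2 tested lymphocyte genes 1 was higher. No endothelial or lymphocyte gene was called between 326E and vehicle livers. Among markers of blood and of fat, muscle and pancreas, Alas2, an enzyme of haem synthesis in red cell precursors, was 0.50 higher in 326E than in vehicle livers and 1.25 lower in vehicle than in chow livers, both called. The pancreas genes Prss2 and Cpa1 stood at 178 and 66.5 FPKM in 326E replicate 1 and at 1494 and 516 FPKM in chow replicate 3, at 0 in the other 326E and all vehicle libraries, and at no more than 0.951 FPKM in the other chow libraries. Without chow replicate 3, the calls of Lpcat3 (-0.39, adjusted p = 0.0207) and Pcyt2 (-0.69, adjusted p = 0.00966) in vehicle against chow livers were kept, and those of Chpt1 (-0.63, adjusted p = 0.0897) and Chka (1.77, adjusted p = 0.0909) were not. The call of Pemt in 326E against chow livers was kept without it (-0.64, adjusted p = 0.0254) and was lost without 326E replicate 1 (-0.51, adjusted p = 0.0701). Without 326E replicate 1, Lpcat3 was called in 326E against vehicle livers (0.96, adjusted p = 0.00297) and Pcyt2 was not (0.47, adjusted p = 0.096). What part the cell types and the pancreas RNA have in the values below was not tested.

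Slc44a1 encodes a plasma membrane and mitochondrial choline transporter and is the uptake gene of the group (ENSMUSG00000028412, mm10 chr4:53440413-53622478). It stood at 7.95, 8.85 and 10.1 FPKM in the 326E libraries, at 8.23, 8.08 and 8.72 FPKM in the vehicle libraries and at 8.97, 10.7 and 8.18 FPKM in the chow libraries. The groups overlapped in every comparison. The difference was 0.09 ± 0.12 for 326E against vehicle livers (95% interval -0.17 to 0.35, adjusted p = 0.658) and -0.13 ± 0.12 for vehicle against chow livers (-0.39 to 0.13, adjusted p = 0.403).

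Choline kinase phosphorylates choline and commits it to the pathway, and mammals carry an alpha gene, Chka, and a beta gene, Chkb. Chka (ENSMUSG00000024843, chr19:3851773-3894369) stood at 3.38, 2.57 and 2.06 FPKM in the 326E libraries, at 37.8, 3.55 and 13.8 FPKM in the vehicle libraries and at 2.68, 3.41 and 2.82 FPKM in the chow libraries. Vehicle replicates 1 and 3 were far above all other libraries, while vehicle replicate 2 lay just above the highest 326E and chow libraries. The groups did not overlap in either comparison with vehicle livers. By reads the range was as wide, with 372 to 7445 reads per library. The difference was -1.92 ± 0.61 for 326E against vehicle livers (95% interval -3.30 to -0.54), which was not called (adjusted p = 0.0751), and 1.80 ± 0.61 for vehicle against chow livers, which was called (adjusted p = 0.041).

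The Chka values depended on which vehicle libraries were used. With vehicle replicate 2 as the only vehicle library, the difference from chow livers was 0.20 and was not called (adjusted p = 0.539), and 13 of 21 alternative settings ended that call, with adjusted p from 0.000921 to 0.539 over all of them. Leaving out any 1 library other than vehicle replicate 2 ended it too, and without vehicle replicate 1 the difference was 1.05. For 326E against vehicle livers the difference was called without vehicle replicate 2 (-2.72, adjusted p = 0.00375) and with voom on the whole reads (-2.24, adjusted p = 0.0397), and adjusted p ranged from 0.00375 to 0.478. Immediate early genes, a fast and transient response to stimulation, were high in the same libraries. The median over 11 of them, on the log2 scale against the chow mean, was 0.68, 0.31 and 0.29 in 326E replicates 1, 2 and 3, and 3.53, 0.73 and 3.96 in vehicle replicates 1, 2 and 3. In the chow replicates it was 0.21, 0.03 and -0.26. Of the 10 tested, 8 were called lower in 326E than in vehicle livers, beside 6.5% of all tested genes. In vehicle against chow livers 8 of these 10 were called higher, beside 20.8% of all tested genes. That list was written with earlier results known, and its part in the Chka values was not tested.

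**Figure D2:**
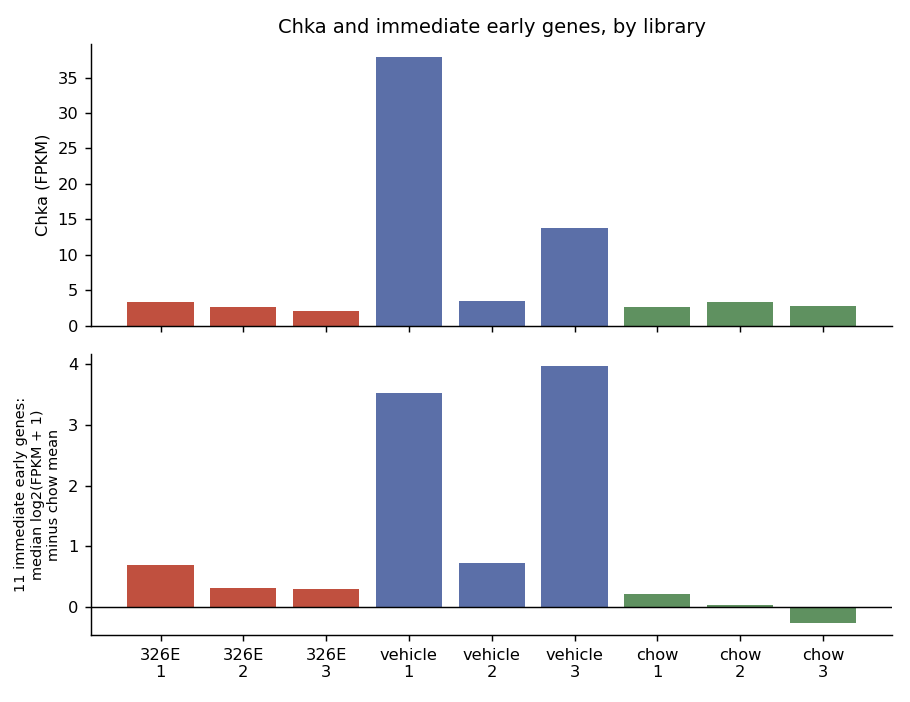
Chka in FPKM (upper panel) and the median of 11 immediate early genes as log2(FPKM + 1) minus the mean of the chow libraries (lower panel), 1 bar per library. Vehicle replicates 1 and 3 are highest in both panels, while vehicle replicate 2 is at 3.55 FPKM of Chka.

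Chkb (ENSMUSG00000022617, chr15:89426360-89429908) could not be read from these data. It had 0 to 5 reads per library, 16 in all, or 0 to 0.126 FPKM, and did not pass the filter on low values. In GENCODE vM21, 50.7% of its exonic bases also lie in exons of Gm44502, a protein-coding gene on the same strand, and Gm44502 was listed at 0 reads in every library. Of the 1707 bases of the transcript Chkb-201, 81.0% lie in Gm44502 exons. Among protein-coding genes that share at least 50% of their exonic bases on the same strand, 349 of 408 (85.5%) were below 0.5 FPKM in every library, against 8675 of 20207 (42.9%) of those that share none. How reads in shared exons were counted is not given in the sources used here, and this comparison does not separate counting from expression. The low value was therefore not read as a measure of Chkb expression, and its cause was not tested. The balance of the 2 kinases was not computed.

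Pcyt1a encodes the enzyme that activates phosphocholine with CTP, the regulated step of the CDP-choline route. Pcyt1a (ENSMUSG00000005615, chr16:32430921-32475070) stood at 12.9, 13.5 and 13.1 FPKM in the 326E libraries, at 12.8, 11.1 and 13.0 FPKM in the vehicle libraries and at 12.8, 12.8 and 12.7 FPKM in the chow libraries. Relative to its level, its libraries lay within a narrower band than those of any other of the 9 tested genes. The difference was 0.09 ± 0.08 for 326E against vehicle livers (95% interval -0.10 to 0.28, adjusted p = 0.515) and -0.05 ± 0.08 for vehicle against chow livers (-0.24 to 0.14, adjusted p = 0.651). Scaled to total assigned reads, it was called 0.32 higher in vehicle than in chow livers (adjusted p = 0.0177), 0.07 above the median of all genes under that scaling. It was also called 0.38 higher in 326E than in chow livers (adjusted p = 0.0108), 0.14 above the median of all genes in that comparison.

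Chpt1 and Cept1 encode the enzymes that join the activated head group to diacylglycerol, CHPT1 with choline and CEPT1 with choline or ethanolamine. Chpt1 (ENSMUSG00000060002, chr10:88452745-88504073) stood at 24.0, 30.6 and 42.9 FPKM in the 326E libraries, at 25.6, 17.1 and 19.1 FPKM in the vehicle libraries and at 35.6, 28.5 and 45.5 FPKM in the chow libraries. The lowest 326E library was below the highest vehicle library, and every vehicle library was below every chow library. The difference was 0.62 ± 0.24 for 326E against vehicle livers (95% interval 0.07 to 1.16) and did not pass (adjusted p = 0.134). Between vehicle and chow livers Chpt1 fell by 0.79 ± 0.24 on the log2 scale (adjusted p = 0.0268). That call was lost in 8 of 21 alternative settings, among them without vehicle replicate 2 or 3, without chow replicate 1 or 3, and under both other scalings, with adjusted p from 0.0166 to 0.146 and differences from -1.03 to -0.41 over all 21. The smallest difference came with total-read scaling, where Chpt1 was 0.66 below the median of all genes.

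Cept1 (ENSMUSG00000040774, chr3:106502260-106547802) stood at 18.4, 23.8 and 27.4 FPKM in the 326E libraries, at 21.5, 22.1 and 22.2 FPKM in the vehicle libraries and at 27.8, 21.2 and 25.1 FPKM in the chow libraries. All groups overlapped and no comparison was called. The difference was 0.06 ± 0.15 for 326E against vehicle livers (95% interval -0.28 to 0.39) and -0.16 ± 0.15 for vehicle against chow livers (-0.49 to 0.18). Of its exonic bases 24.9% lie in exons of genes on the other strand, nearly all in Dennd2d, at 1.29 to 1.89 FPKM, and whether counting used strand is not given in the sources used here.

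Etnk2 and Pcyt2 serve the ethanolamine branch, whose product is the substrate of PEMT. ETNK2 is an ethanolamine kinase of liver, and PCYT2 activates phosphoethanolamine, the regulated step of that branch. Etnk2 (ENSMUSG00000070644, chr1:133363572-133380336) stood at 47.4, 43.0 and 49.7 FPKM in the 326E libraries, at 52.7, 43.5 and 63.2 FPKM in the vehicle libraries and at 54.3, 82.0 and 48.2 FPKM in the chow libraries. Its groups overlapped, with differences of -0.17 ± 0.20 for 326E against vehicle livers (95% interval -0.63 to 0.29) and -0.19 ± 0.20 for vehicle against chow livers (-0.64 to 0.27), neither of them called.

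Pcyt2 (ENSMUSG00000025137, chr11:120610087-120617936) stood at 56.9, 50.5 and 51.4 FPKM in the 326E libraries, at 41.2, 31.2 and 38.0 FPKM in the vehicle libraries and at 53.7, 65.7 and 54.3 FPKM in the chow libraries. All vehicle libraries were below all libraries of the other groups. Pcyt2 rose by 0.52 ± 0.13 in 326E against vehicle livers (adjusted p = 0.0341) and fell by 0.64 ± 0.13 in vehicle against chow livers (adjusted p = 0.0039). The 326E and chow libraries overlapped, with a difference of -0.12 ± 0.13 (95% interval -0.42 to 0.17). The call between 326E and vehicle livers was close to the threshold and was lost in 10 of 21 alternative settings, with adjusted p from 0.0266 to 0.096 and differences from 0.41 to 0.74. These included leaving out any 326E library, vehicle replicate 2 or 3, or chow replicate 1. The call between vehicle and chow livers was lost under total-read scaling alone (-0.25, adjusted p = 0.153), where Pcyt2 was 0.50 below the median of all genes.

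Pemt encodes the methyltransferase of the liver's second route and was the most abundant gene of the group per length in every group, at ranks 468, 380 and 422 among all genes by mean FPKM in 326E, vehicle and chow livers. Pemt (ENSMUSG00000000301, chr11:59970614-60046489) stood at 81.9, 87.1 and 93.8 FPKM in the 326E libraries, at 113, 86.2 and 118 FPKM in the vehicle libraries and at 132, 143 and 114 FPKM in the chow libraries. Group means were 87.6 ± 5.93 FPKM in 326E livers, 106 ± 17.0 FPKM in vehicle livers and 130 ± 14.4 FPKM in chow livers. Neighbouring groups in that order overlapped, and neither step was called, with -0.26 ± 0.14 for 326E against vehicle livers (95% interval -0.58 to 0.07, adjusted p = 0.278) and -0.30 ± 0.14 for vehicle against chow livers (-0.62 to 0.03, adjusted p = 0.127). With vehicle replicate 2 as the only vehicle library these differences were 0.02 and -0.58, and the second was called (adjusted p = 0.0463). The 326E libraries were all below the chow libraries, and Pemt fell by 0.56 ± 0.14 between them (adjusted p = 0.0204). That call was lost with quantile normalization (-0.20, adjusted p = 0.273), with total-read scaling (-0.19, adjusted p = 0.258), and without 326E replicate 1 or 2 or chow replicate 1 or 2. Under total-read scaling Pemt was 0.43 below the median of all genes.

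Lpcat3 encodes an acyltransferase that puts polyunsaturated fatty acids, arachidonate and linoleate among them, into phosphatidylcholine in the liver and intestine, and in mouse liver it is a known target gene of the LXR receptors. Lpcat3 (ENSMUSG00000004270, chr6:124663027-124704418) stood at 53.4, 55.0 and 52.9 FPKM in the 326E libraries, at 28.3, 25.3 and 28.4 FPKM in the vehicle libraries and at 34.8, 37.1 and 35.5 FPKM in the chow libraries. The 3 groups did not overlap, with 326E libraries highest and vehicle libraries lowest. Lpcat3 rose by 0.95 ± 0.08 in 326E against vehicle livers (95% interval 0.76 to 1.14, adjusted p = 0.000858). It was called in all 21 alternative settings, at 0.86 to 1.06, with adjusted p from 0.000486 to 0.0225. In 326E against chow livers it also rose, by 0.57 ± 0.08 (adjusted p = 0.00162), at 0.53 to 0.93 over the same settings. In vehicle against chow livers it fell by 0.38 ± 0.08 (adjusted p = 0.00658), a call that was lost with quantile normalization (-0.19, adjusted p = 0.0943) and whose direction flipped to 0.01 under total-read scaling (adjusted p = 0.958), where it was 0.24 below the median of all genes. Of its exonic bases 10.2% are shared with Emg1 on the other strand, which stood at 4.67 to 10.3 FPKM.

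**Figure D3:**
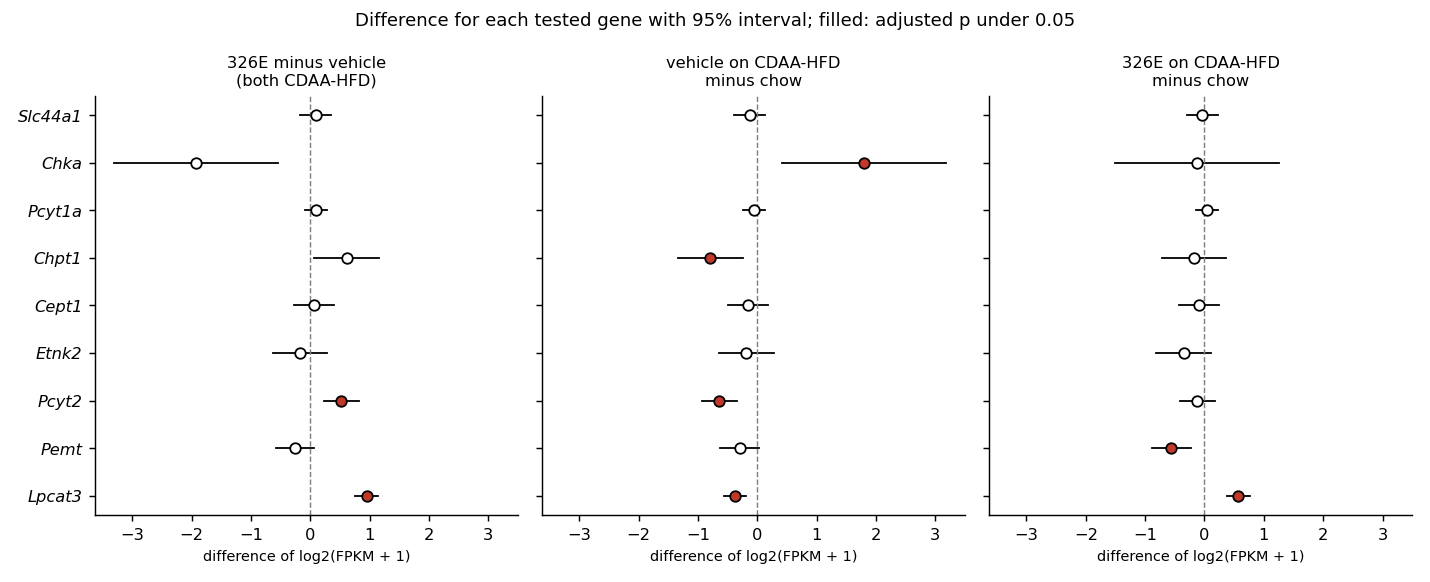
Differences of log2(FPKM + 1) between groups for the 9 tested genes, with 95% intervals; filled points are called at an adjusted p under 0.05. Lpcat3 has a narrow interval above 0 in 326E against vehicle livers, and Chka the widest interval in every panel.

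By mean FPKM, though not by reads in every library, Pemt came first in every group. In 326E livers Lpcat3 (53.8 ± 1.09 FPKM), Pcyt2 (52.9 ± 3.43 FPKM) and Etnk2 (46.7 ± 3.40 FPKM) followed, with Lpcat3 and Pcyt2 overlapping and Etnk2 below both, and Chka (2.67 ± 0.67 FPKM) was the lowest tested gene. In vehicle livers Etnk2 (53.1 ± 9.88 FPKM) and Pcyt2 (36.8 ± 5.14 FPKM) came next and did not overlap, then Lpcat3 (27.4 ± 1.75 FPKM) and Cept1 (22.0 ± 0.36 FPKM), which did not overlap either. Cept1 lay within the spread of Chpt1 (20.6 ± 4.44 FPKM) and of Chka (18.4 ± 17.6 FPKM), and Pcyt1a (12.3 ± 1.01 FPKM) and Slc44a1 (8.34 ± 0.33 FPKM) were last. In chow livers Etnk2 (61.5 ± 18.0 FPKM) and Pcyt2 (57.9 ± 6.76 FPKM) overlapped, as did Chpt1 (36.5 ± 8.58 FPKM) and Lpcat3 (35.8 ± 1.18 FPKM), and Chka (2.97 ± 0.39 FPKM) was again the lowest.

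Ratios of 2 genes within a library are free of any scaling between libraries. The Pemt to Pcyt1a ratio, which sets the methylation route beside the rate-limiting gene of the CDP-choline route, was 6.38, 6.44 and 7.17 in the 326E libraries, 8.86, 7.74 and 9.07 in the vehicle libraries and 10.3, 11.2 and 8.97 in the chow libraries. All 326E ratios were below all vehicle ratios, while vehicle and chow ratios overlapped. The differences of the log2 ratio were -0.36 for 326E against vehicle livers and -0.60 for 326E against chow livers (exact permutation p = 0.1, two-sided, for each), and -0.24 for vehicle against chow livers (exact p = 0.2). The smallest p that 3 against 3 libraries allow is 0.1, so none of the 9 ratio tests could pass, and adjusted over the 9 the lowest value was 0.15.

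The Chpt1 to Cept1 ratio was 1.31, 1.29 and 1.57 in the 326E libraries, 1.19, 0.771 and 0.861 in the vehicle libraries and 1.28, 1.34 and 1.82 in the chow libraries. All vehicle ratios were below those of the other groups, by 0.58 on the log2 scale from 326E livers and by 0.66 from chow livers (exact permutation p = 0.1 each). The Pcyt2 to Pcyt1a ratio, the ethanolamine enzyme over the choline enzyme, was 4.42, 3.74 and 3.93 in the 326E libraries, 3.22, 2.80 and 2.93 in the vehicle libraries and 4.21, 5.15 and 4.26 in the chow libraries. It was again lowest in the vehicle libraries, with log2 differences of 0.43 for 326E against vehicle livers and -0.60 for vehicle against chow livers (exact permutation p = 0.1 each). The 326E and chow libraries overlapped for both ratios, with differences of -0.08 (exact p = 0.7) and -0.17 (exact p = 0.3).

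**Figure D4:**
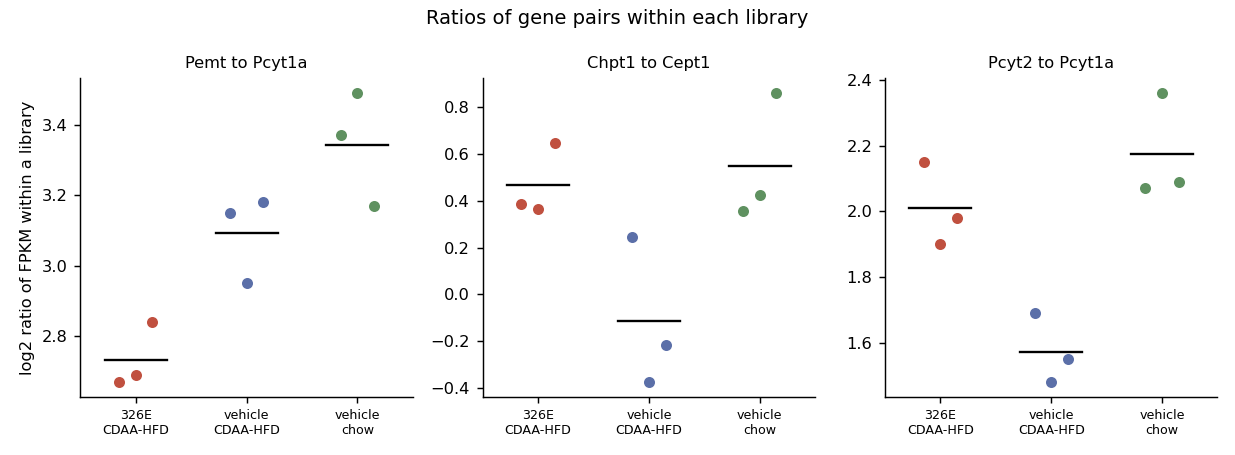
Log2 ratios of FPKM of 3 gene pairs within each library; points are libraries, bars are group means, and the vertical axes differ and do not start at 0. For Chpt1 to Cept1 and Pcyt2 to Pcyt1a all vehicle libraries lie below the other groups; for Pemt to Pcyt1a the 326E libraries lie lowest, at 2.67 to 2.84.

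The rest of the pathway was read from 44 further genes in 4 lists, of which 37 were tested. Between 326E and vehicle livers 4 of the 37 rose, 3 fell and 30 were not called, with a median of -0.08 and a background of 11.5% called over all tested genes. Between vehicle and chow livers 13 rose, 7 fell and 17 were not called, with a median of 0.01 and a background of 41.6% called. The same backgrounds apply to each list below, with 4.96% higher and 6.5% lower in the first comparison and 20.8% in each direction in the second. With vehicle replicate 2 as the only vehicle library, 0 of the 37 were called in 326E against vehicle livers by limma (12 at an unadjusted p under 0.05), and 12 in vehicle against chow livers. The differences in 326E against vehicle livers were then 0.92 for Pla2g6, 0.47 for Pnpla7, -0.54 for Lpcat1, 0.44 for Ptdss2, 0.41 for Abcb4 and -0.52 for Flvcr1. These were close to the values with all 3 vehicle libraries given below. The 6 genes were picked among those called with all 3 vehicle libraries, and the cause of the lost calls was not tested. Without 326E replicate 1, 3 of the 37 were called in 326E against vehicle livers. Pcyt1b, Slc44a4, Slc44a5, Slc5a7, Slc22a2, Phospho1 and Mboat2 were too low to test, at no more than 0.634 FPKM in any library.

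Of 8 tested genes of choline and ethanolamine transport and the CDP routes, 1 fell between 326E and vehicle livers, and 4 rose and 1 fell between vehicle and chow livers. Flvcr1, a choline transporter of the plasma membrane, stood at 1.65, 1.65 and 1.95 FPKM in the 326E libraries, at 4.16, 2.95 and 2.61 FPKM in the vehicle libraries and at 0.973, 0.865 and 0.967 FPKM in the chow libraries. The groups did not overlap. Flvcr1 fell by 0.61 ± 0.13 in 326E against vehicle livers (adjusted p = 0.0209) and rose by 1.11 ± 0.13 in vehicle against chow livers (adjusted p = 0.000231). The first call was lost without 326E replicate 1 or 2, and with no filter (adjusted p = 0.0563). Mfsd2a, which carries lysophosphatidylcholine into cells, stood at 30.4, 23.7 and 29.9 FPKM in the 326E libraries, at 60.7, 49.0 and 78.7 FPKM in the vehicle libraries and at 1.55, 18.2 and 10.3 FPKM in the chow libraries. It rose by 2.93 ± 0.60 in vehicle against chow livers (adjusted p = 0.00433, and 0.0854 with vehicle replicate 2 as the only vehicle library). Its 326E libraries were all below its vehicle libraries, but its difference of -1.12 ± 0.60 in 326E against vehicle livers was not called (95% interval -2.49 to 0.24). With only the libraries of these 2 groups in the fit it was called (-1.12, adjusted p = 0.0191), and likewise without chow replicate 1. Slc44a1, the transporter described above, was called in neither comparison.

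Of 7 tested remodelling genes besides Lpcat3, 1 fell between 326E and vehicle livers, and 3 rose and none fell between vehicle and chow livers. Lpcat1, an acyltransferase that prefers saturated fatty acids, stood at 1.91, 2.15 and 1.51 FPKM in the 326E libraries, at 3.42, 3.14 and 2.77 FPKM in the vehicle libraries and at 0.719, 0.800 and 0.963 FPKM in the chow libraries. It fell by 0.53 ± 0.11 in 326E against vehicle livers (adjusted p = 0.0203) and rose by 1.17 ± 0.11 in vehicle against chow livers (adjusted p = 7.97e-05), in each comparison the opposite direction to Lpcat3. Under total-read scaling, which moves the median of all genes to 0.25, Lpcat3 stood at 0.01 in vehicle against chow livers, still 0.24 below that median. The call of Lpcat1 in 326E against vehicle livers was lost without 326E replicate 1 or 3 or vehicle replicate 1, and with no filter (adjusted p = 0.0541). Lpcat2, the form of inflammatory cells that also makes platelet-activating factor, stood at 2.86, 2.47 and 2.34 FPKM in the 326E libraries, at 3.72, 4.81 and 3.46 FPKM in the vehicle libraries and at 0.732, 1.32 and 1.18 FPKM in the chow libraries. It rose by 1.27 ± 0.14 in vehicle against chow livers (adjusted p = 0.000171), and its difference of -0.48 ± 0.14 in 326E against vehicle livers just missed the threshold (95% interval -0.81 to -0.16, adjusted p = 0.0594). Both were low beside Lpcat3 per length, and the macrophage markers given above, apart from Clec4f, moved the same way. Their part was not tested.

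Of 5 tested genes of phosphatidylserine and ethanolamine lipids, 1 rose and 1 fell in each comparison. Ptdss2, which makes phosphatidylserine from phosphatidylethanolamine, stood at 3.38, 3.08 and 3.15 FPKM in the 326E libraries, at 1.95, 2.11 and 1.89 FPKM in the vehicle libraries and at 2.17, 1.86 and 2.004 FPKM in the chow libraries. The 326E libraries were above all the others, and Ptdss2 rose by 0.50 ± 0.08 in 326E against vehicle livers (adjusted p = 0.00796). In vehicle against chow livers its difference was -0.01 ± 0.08 (95% interval -0.20 to 0.17). Etnppl, which breaks down phosphoethanolamine, averaged 5.18 ± 0.74 FPKM in 326E livers, 6.10 ± 1.85 FPKM in vehicle livers and 14.6 ± 3.32 FPKM in chow livers, and fell by 1.14 ± 0.20 in vehicle against chow livers (adjusted p = 0.00205).

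Of 17 tested genes that break down, use or secrete phosphatidylcholine, 3 rose and none fell between 326E and vehicle livers, and 5 rose and 5 fell between vehicle and chow livers. Pla2g6, a calcium-independent phospholipase, stood at 18.4, 22.5 and 19.1 FPKM in the 326E libraries, at 11.6, 10.1 and 8.82 FPKM in the vehicle libraries and at 7.71, 5.31 and 8.41 FPKM in the chow libraries. It rose by 0.92 ± 0.16 in 326E against vehicle livers (adjusted p = 0.0101) and by 0.47 ± 0.16 in vehicle against chow livers (adjusted p = 0.0453), and the second call was lost without any 1 library other than vehicle replicate 3 or chow replicate 3. Abcb4, which moves phosphatidylcholine into bile, stood at 73.0, 77.1 and 63.3 FPKM in the 326E libraries, at 47.4, 53.2 and 52.3 FPKM in the vehicle libraries and at 39.5, 35.2 and 46.1 FPKM in the chow libraries. It rose by 0.47 ± 0.12 in 326E against vehicle livers (adjusted p = 0.0421), a call that was lost when any 1 library of these 2 groups or chow replicate 1 was left out, and also with either other scaling, with no filter, with the replicate block and with only the libraries compared, at 0.44 to 0.47 in these 5. Its difference of 0.34 ± 0.12 in vehicle against chow livers was not called (adjusted p = 0.0551). That difference was called with quantile normalization (0.56, adjusted p = 0.0147), with total-read scaling (0.73, adjusted p = 0.00307), with protein-coding genes only (0.34, adjusted p = 0.0495) and without chow replicate 3.

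Pnpla7, a lysophospholipase, averaged 17.3 ± 0.79 FPKM in 326E livers, 12.3 ± 0.55 FPKM in vehicle livers and 18.2 ± 1.06 FPKM in chow livers. It rose by 0.46 ± 0.08 in 326E against vehicle livers (adjusted p = 0.0116) and fell by 0.53 ± 0.08 in vehicle against chow livers (adjusted p = 0.00112), the second being -0.15 and not called under total-read scaling. Lcat, the plasma enzyme that transfers a fatty acid of phosphatidylcholine to cholesterol, averaged 169 ± 16.3 FPKM in 326E livers, 166 ± 29.9 FPKM in vehicle livers and 289 ± 38.6 FPKM in chow livers. It fell by 0.80 ± 0.16 in vehicle against chow livers (adjusted p = 0.00365), or by 0.24 and uncalled with quantile normalization (adjusted p = 0.116), and its difference in 326E against vehicle livers was 0.03 ± 0.16 (95% interval -0.33 to 0.39).

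**Figure D5:**
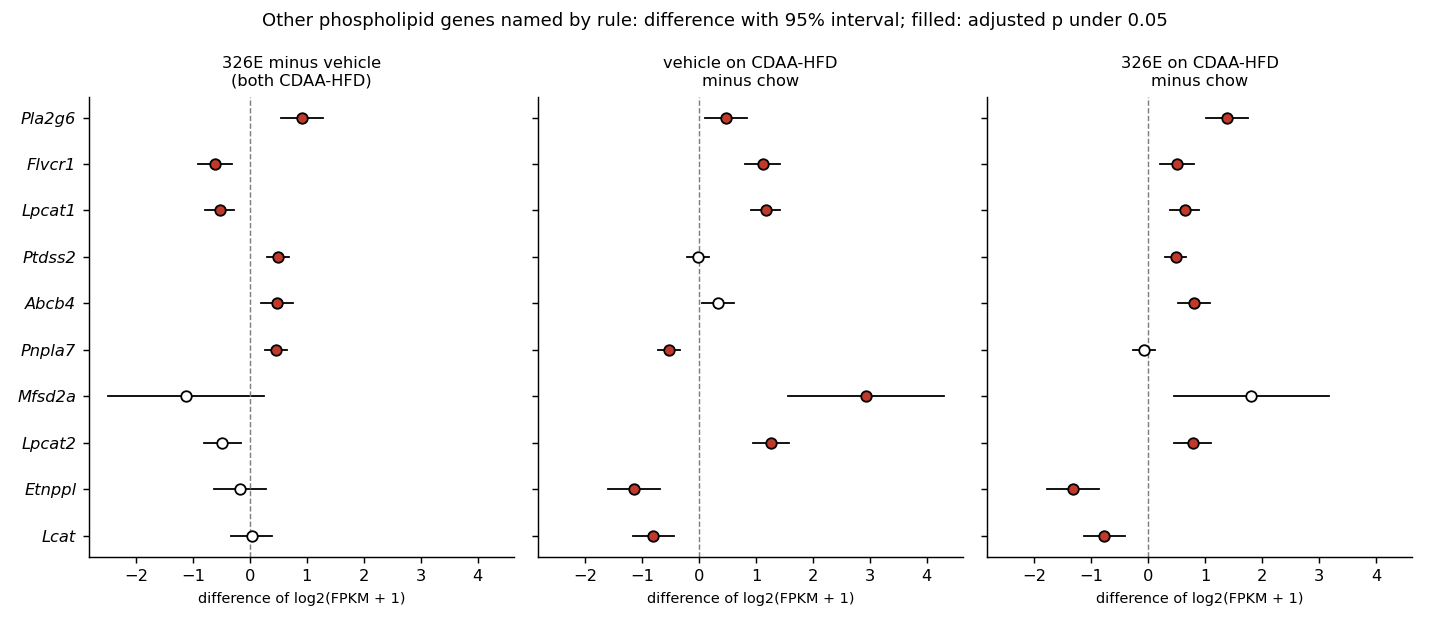
Differences of log2(FPKM + 1) between groups for the 10 further phospholipid genes with the largest called differences, with 95% intervals; filled points are called at an adjusted p under 0.05. Flvcr1 and Lpcat1 lie below 0 in 326E against vehicle livers and above 0 in vehicle against chow livers, while Ptdss2 lies at 0.50 and -0.01.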

How the data were processed

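Poly(A) RNA of 9 liver libraries was sequenced. Per the submitters' processing notes, HISAT2 and featureCounts were used on mm10; versions, annotation and strand setting are not given in the sources used here. The deposited values are FPKM per gene, with the gene length in bases as another deposited column, and no column of values was left unused. Multiplying FPKM by length recovered whole reads for 100% of values (tolerance 0.01). The library sizes in the FPKM were not the read totals but 0.828 to 1.19 of them, in proportion to median-of-ratios factors, so libraries were already scaled to each other. One read in a gene of 2 kb was 0.0246 to 0.0455 FPKM, which sets the precision of low values.

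A gene was tested where 3 or more of the 9 libraries reached 0.5 FPKM. The test was limma 3.58.1 (R 4.3.3) with a trend in the variance, on log2(FPKM + 1) of all 9 libraries together, with Benjamini-Hochberg adjustment in each comparison. Ratios were compared by exact permutation tests. Titles of all libraries begin with MCD, but the labels' protocol names CDAA-HFD and normal chow, which was followed. Named genes were all 10 members and, from the pathway lists, the 6 called genes with the largest difference in 326E against vehicle and in vehicle against chow livers and a group mean of at least 1 FPKM. Members, lists, motifs and alternatives were chosen with earlier results of these data known. Exon overlap came from GENCODE vM21, and 10 of 10 members had the same coordinates there. Alternatives used a pseudocount of 0.1 or of 5, no filter, a mean of at least 1 FPKM, quantile normalization, total-read scaling, voom on the whole reads, a replicate block, only the libraries compared, no variance trend, protein-coding genes only, each library left out, and only vehicle replicate 2 kept. Tables and plots used Python 3.11.15, pandas 2.3.3, numpy 2.4.6 and matplotlib 3.10.9.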

Additional observations from a re-analysis of the deposited data

How the results depend on the processing

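Lpcat3 kept its direction and its call in 326E against vehicle and 326E against chow livers in all 21 settings. In 326E against vehicle livers 1574 genes were called, against 1030 with no filter, 1037 with a replicate block, 322 with only vehicle replicate 2 kept, and 659 to 1623 when 1 library was left out. In vehicle against chow livers 5721 were called, against 3596 with only vehicle replicate 2 kept, and in 326E against chow livers 3688, against 2401 to 3717 with 1 library left out. Across genes, the deviations of same-numbered libraries from their group means correlated at -0.244 to 0.0236. These values show no pairing by replicate number, and with 3 libraries per group they cannot exclude it. Of the members, 2 were called in 326E against vehicle livers, and 1 with no filter, with the replicate block, with only the libraries compared and with only vehicle replicate 2 kept (1 to 2 with 1 library left out). In vehicle against chow livers 4 were called, 2 with no filter, 1 with quantile normalization, 2 with total-read scaling and 2 to 3 with 1 library left out. In 326E against chow livers 2 of the 9 tested members were called, beside 26.8% of all tested genes. With quantile normalization 1 was called, and 1 to 2 with 1 library left out. Of the further pathway genes, 7 were called in 326E against vehicle livers, 4 with no filter, 0 with only vehicle replicate 2 kept and 3 to 8 with 1 library left out, and 20 in vehicle against chow livers, 12 with only vehicle replicate 2 kept and 15 to 19 with 1 library left out. In 326E against chow livers 15 of the 37 tested further pathway genes were called, beside 26.8% of all tested genes, and 10 to 15 with 1 library left out. The cause of these losses was not tested. Where libraries were left out, their number and their identity changed together.

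Directions that turned were all but 1 of differences that were not called, the exception being Lpcat3 in vehicle against chow livers at 0.00737 under total-read scaling. Under that scaling, which moves most genes up in both comparisons with chow livers, the differences from chow in vehicle livers became 0.0965 for Pemt, 0.316 for Pcyt1a, 0.227 for Cept1, 0.206 for Etnk2, 0.227 for Slc44a1 and 0.249 for Ptdss2. In 326E livers they became 0.148 for Chka, 0.236 for Pcyt2, 0.178 for Chpt1, 0.254 for Cept1, 0.00561 for Etnk2, 0.287 for Slc44a1 and 0.275 for Pnpla7. With quantile normalization they became 0.0888 for Pemt, 0.0358 for Pcyt1a, 0.012 for Cept1 and 0.104 for Etnk2 in vehicle livers, and 0.0893 for Pcyt2, 0.039 for Cept1, 0.0246 for Slc44a1 and 0.0521 for Pnpla7 in 326E livers, and Lcat was at -0.0205 in 326E against vehicle livers. With only vehicle replicate 2 kept, 326E against vehicle livers gave 0.0201 for Pemt and 0.0985 for Etnk2, and vehicle against chow livers 0.0444 for Ptdss2. With 1 library left out, differences that crossed 0 ran from -0.0659 to 0.21 (Cept1), -0.317 to 0.0262 (Etnppl) and -0.0841 to 0.168 (Lcat) in 326E against vehicle livers. In vehicle against chow livers they ran from -0.0883 to 0.0125 (Pcyt1a), -0.339 to 0.038 (Etnk2) and -0.0511 to 0.023 (Ptdss2). In 326E against chow livers they ran from -0.259 to 0.000644 (Chka), -0.391 to 0.0148 (Chpt1), -0.221 to 0.0548 (Cept1) and -0.122 to 0.0543 (Slc44a1), and for the log2 ratio of Chpt1 to Cept1 from -0.177 to 0.0748. Ratios of Chka to Chkb were not run because Chkb was at 0 to 5 reads.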
